A study of Homo sapiens with 12 samples.

Results

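Epidermal differentiation and barrier genes are a set of 36 genes that encode proteins of the cornified envelope, skin kallikreins, protease inhibitors, surface and secreted proteins of stratified epithelium, and enzymes of the barrier lipids. They were listed by symbol and matched to the gene identifiers of the count table, and all 36 were among its 62702 usable entries. Of these, 19 had enough counts to be tested, against 17677 genes tested in all. They were followed in MCF10AT, a Ras-transformed derivative of the human breast epithelial line MCF10A. The cells expressed the long prolactin receptor form together with the intermediate form (hPRLrL/hPRLrI), either with the tail of the intermediate form removed (genotype label hPRLrL/hPRLrI I-tail deleted) or with it intact. After 24 h of serum starvation, each genotype was either given prolactin (PRL, 250 ng/ml) and collected 2 h later or left untreated. The 4 groups are called deleted PRL, deleted untreated, intact PRL and intact untreated, with 3 libraries each, described as biological replicates in the treatment protocol. Every group carries both receptor forms and was starved, so no group shows the line without added receptor. Whether a genotype is 1 clone is not stated in the labels.

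In skin, keratinocytes that leave the basal layer stop dividing, switch from KRT5 and KRT14 to KRT1 and KRT10, and build a cornified envelope under the membrane. Involucrin, filaggrin, small proline-rich and late envelope proteins are crosslinked by transglutaminases, while kallikreins cut the junctions between dead cells and are held in check by protease inhibitors. Breast epithelium does not cornify, but basal mammary cells share keratins with the basal epidermis, and secreted inhibitors such as SLPI are made by many glandular epithelia. The PRL receptor signals through JAK2 and STAT5.

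Library totals were 36120808 to 57324865 counts. The receptor itself and the STAT5 target CISH served as a check of the labels. PRLR had 3550 ± 362 CPM (counts scaled to a common library total) in deleted PRL, 3580 ± 110 in deleted untreated, 3650 ± 478 in intact PRL and 3410 ± 160 in intact untreated libraries (SD, n = 3 each). CISH had 59.4 ± 6.11 CPM in deleted PRL, against 4.57 ± 1.14 in deleted untreated libraries, and 60.5 ± 8.95 in intact PRL, against 3.83 ± 0.989 in intact untreated libraries (SD, n = 3 each). The table counts whole genes, so it cannot tell the deleted from the intact receptor. CPM are scaled by the trimmed mean of M values (TMM) throughout.

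Sequences around the gene starts are shown for 3 tested members, because the envelope genes are known targets of AP-1 and the PRL receptor acts through STAT factors. The windows run from 250 bases before to 50 after the start in RefSeq, build GRCh38.p14, which held entries for 27 of the 36 members (TGM1, SLPI, CSTA, PI3, SPRR2D, CRCT1, KLK8, LY6D and RHCG had none). The lines give IVL (chr1:152908296-152908595, plus strand), SPRR1B (chr1:153030953-153031252, plus strand) and SERPINB1 (chr6:2841814-2842113, minus strand), each 5′ to 3′ on the strand of its gene. Capitals mark the AP-1 letters TGANTCA in IVL and SPRR1B and the STAT letters TTCNNNGAA in SERPINB1.
IVL: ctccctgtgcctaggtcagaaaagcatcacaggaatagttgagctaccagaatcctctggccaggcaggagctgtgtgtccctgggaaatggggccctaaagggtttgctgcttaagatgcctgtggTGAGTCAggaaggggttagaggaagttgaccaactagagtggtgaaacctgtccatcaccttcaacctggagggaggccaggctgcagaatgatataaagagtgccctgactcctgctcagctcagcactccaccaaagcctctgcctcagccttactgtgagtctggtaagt
SPRR1B: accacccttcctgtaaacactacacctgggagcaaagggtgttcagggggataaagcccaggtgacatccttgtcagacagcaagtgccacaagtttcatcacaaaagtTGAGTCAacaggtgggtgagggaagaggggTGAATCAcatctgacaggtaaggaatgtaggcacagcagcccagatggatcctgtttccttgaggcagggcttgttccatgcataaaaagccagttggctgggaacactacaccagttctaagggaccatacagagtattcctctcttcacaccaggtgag
SERPINB1: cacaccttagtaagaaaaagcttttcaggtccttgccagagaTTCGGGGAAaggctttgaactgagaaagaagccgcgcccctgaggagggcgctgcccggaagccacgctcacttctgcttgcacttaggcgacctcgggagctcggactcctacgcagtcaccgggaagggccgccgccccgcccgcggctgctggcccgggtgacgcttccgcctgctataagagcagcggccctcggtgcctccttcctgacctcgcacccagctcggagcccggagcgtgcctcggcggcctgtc

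The AP-1 letters began 123 bases before the start in IVL and at 141 and 111 bases in SPRR1B. They were found, on either strand, in the windows of 10 of 27 member genes, namely FLG, IVL, LCN2, SBSN, SCEL, SERPINB13, SPRR1A, SPRR1B, SPRR2A and SPRR3. In terms of windows this was 27.8% of the member windows, against 7.71% of all 35116 windows in the table. The STAT letters were found 208 bases before the start of SERPINB1 and in 2.78% of the member windows, against 7.66% of all windows. The grainyhead letters AACCNGTT were in none of the member windows and in 1.73% of all windows. Only 4 of the 10 genes with AP-1 letters, FLG, IVL, SBSN and SPRR1B, had enough counts to be tested.

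Detection is given by role. Of the 14 cornified envelope genes 6 were tested, of the 7 kallikreins 4, of the 8 protease inhibitors 5, of the 4 surface and secreted proteins 3, and of the 3 barrier lipid and transport genes 1. Of the 17 genes that were not tested, 14 had low counts, at most 23 in any library (SPRR1A in the intact PRL library of run 3, 0.561 CPM). Among them CDSN had a count in 11 libraries and SERPINB13 in 10. PSORS1C1 (4.3 CPM) overlaps CDSN (0.1396 CPM) on the other strand. As no source used here says whether counting used strand, the reads of that pair cannot be told apart. CRCT1, a gene of the epidermal differentiation complex, CERS3, the ceramide synthase for very long acyl chains of the skin barrier, and RHCG, an ammonium transporter, had 0 counts in all 12 libraries. A count of 0 allows up to 3 counts, which is 0.0521 to 0.0897 CPM in 1 library and 0.00584 CPM over all 12, for counting error alone. The epidermal differentiation complex on chromosome 1, where many envelope genes lie side by side, had 3 of its 9 listed genes tested (IVL, SPRR1B, FLG). The kallikrein cluster on chromosome 19 had KLK5, KLK6, KLK7 and KLK10 tested and KLK8, KLK11 and KLK13 not. The serpin cluster on chromosome 18 (SERPINB3, SERPINB4, SERPINB13) had none tested. The longest reading frames of SERPINB3 and SERPINB4 are 95.2% identical over 1173 bases, so their reads may be assigned to either gene or dropped. Both whey acidic protein inhibitors on chromosome 20, SLPI and PI3, were tested.

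Mean levels of the tested genes were under 1 CPM for 11, between 1 and 10 CPM for 4 and above 10 CPM for 4. LYPD3, a membrane-anchored Ly6 family protein of suprabasal keratinocytes (chr19:43460787-43465660), had the highest mean at 209.9 CPM. It was followed by SLPI, a secreted inhibitor of neutrophil elastase (chr20:45252239-45254564), at 67.89 CPM, SERPINB1, an intracellular elastase inhibitor (chr6:2832332-2842006), at 31.66 CPM, and CNFN, the envelope protein cornifelin (chr19:42387019-42390287), at 21.09 CPM. The middle group held CSTA, the cysteine protease inhibitor cystatin A, at 8.178 CPM, TGM1, the transglutaminase that crosslinks the envelope (chr14:24249114-24264432), at 2.742, LY6D, a surface antigen of keratinocytes, at 2.14, and KLK5, a trypsin-like kallikrein of shedding skin (chr19:50943303-50953093), at 2.046. Gene positions are from GENCODE 29 on GRCh38.

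Compared between genes, levels were taken per kilobase of exon. On that scale the mean level was 113.9 CPM per kb for SLPI, 83.31 for LYPD3, 34.97 for CNFN, 10.23 for SERPINB1, 5.956 for CSTA, 1.378 for LY6D and 1.238 for KLK5, and under 1 for every other tested member. Of the envelope's best known proteins, involucrin (IVL) had a mean level of 0.2558 CPM per kb. Filaggrin (FLG) had 0.03361 CPM per kb, the lowest of the tested members. The highest levels were those of an inhibitor and a surface protein.

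**Figure D1:**
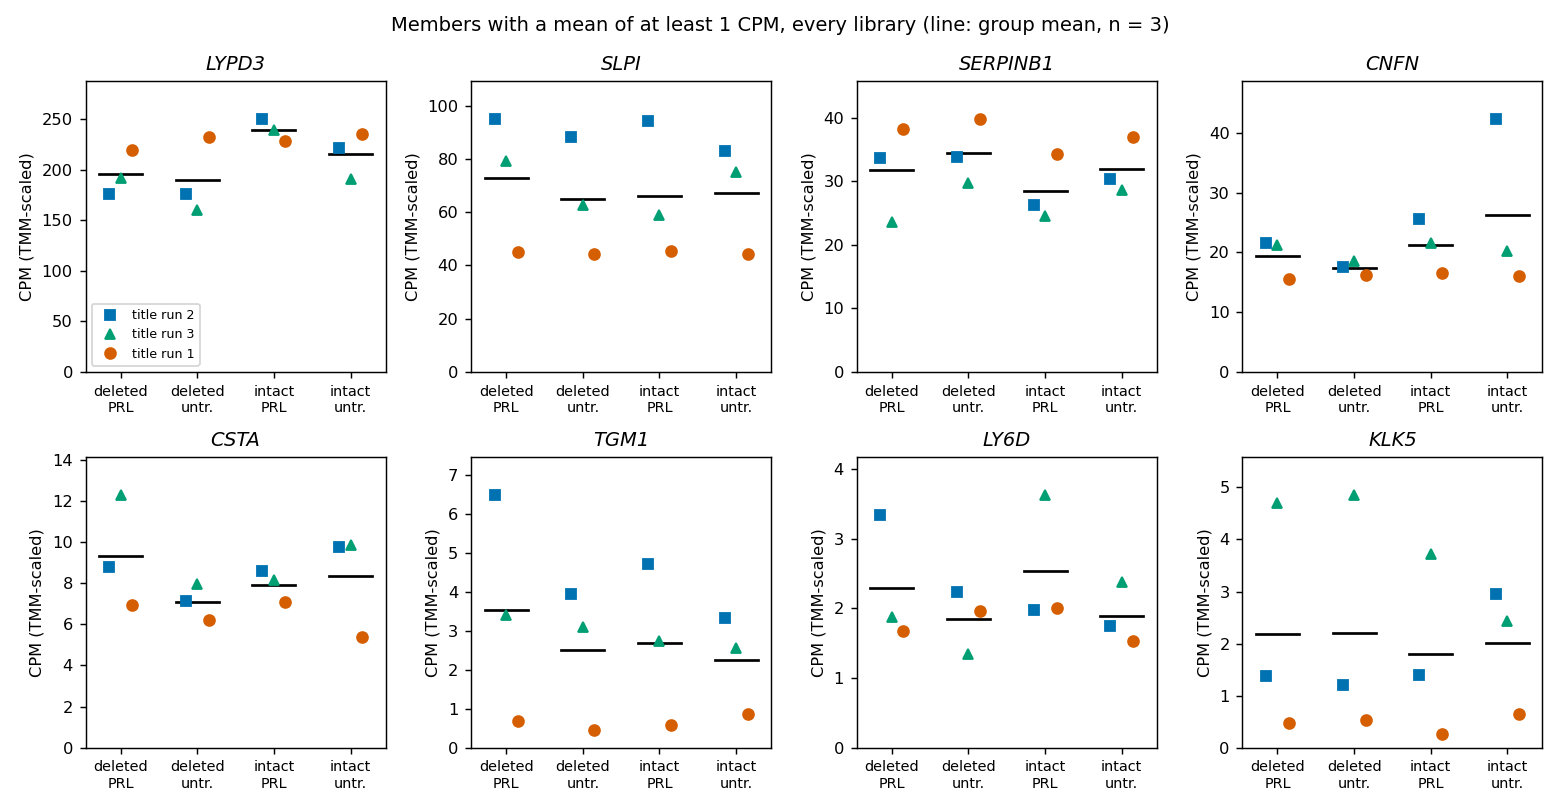
CPM (TMM-scaled, vertical axis) of the 8 genes with a mean of at least 1 CPM in every library of the 4 groups (horizontal axis; horizontal lines are group means, n = 3); colours and shapes give the runs of title numbers. TGM1, SLPI and KLK5 are lowest in the 4 libraries of run 1 in each group, and group means lie close together.

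The response to PRL was tested by edgeR's quasi-likelihood test in each genotype and as the average of both, with Benjamini-Hochberg adjustment over all 17677 genes. None of the 19 members passed an adjusted p of 0.05: 0 were called with the deleted I-tail, where 0.017% of all genes were called, 0 with the intact I-tail (0.017%), and 0 for the average (0.119%). In all 3 comparisons 0 members had an unadjusted p under 0.05 in this test. DESeq2 and limma-voom also called 0, with an unadjusted p under 0.05 for CALML5 with the intact I-tail in both and for LY6D on average in limma-voom (adjusted p = 0.247 and 0.225 by limma-voom). DESeq2 gave no adjusted p for 11 of the 19 members with the intact I-tail, CALML5 among them, and for 2 with the deleted one. For the averaged PRL effect, 12 members had a log2 fold change above 0 and 7 below. Their median was 0.16, against -0.02 over all tested genes, and the lowest adjusted p among them was 0.98.

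The abundant members bound the PRL effect most closely. LYPD3 had 219, 176 and 192 CPM in deleted PRL, against 232, 176 and 160 CPM in deleted untreated libraries, and 228, 250 and 239 CPM in intact PRL, against 235, 221 and 191 CPM in intact untreated libraries. PRL and untreated libraries overlapped in the deleted genotype and in the intact one. The averaged log2 fold change of LYPD3 was 0.10 ± 0.13 (SE; 95% interval -0.18 to 0.37). For SERPINB1 it was -0.14 ± 0.15 (-0.46 to 0.18), and for CSTA 0.16 ± 0.19 (-0.25 to 0.58). SLPI gave 0.07 ± 0.25 (-0.46 to 0.60) and CNFN -0.07 ± 0.22 (-0.54 to 0.39).

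Within the runs of title numbers described below, each PRL library has an untreated partner of its own genotype, which gives 6 differences per gene. SERPINB1 was lower with PRL in 6 of 6, by log2 differences of -0.337 to -0.00671. No other member had the same sign in all 6 pairs, and 14.4% of all tested genes did. With the runs as a term of the fit, SERPINB1's PRL effect was -0.15 ± 0.08 (SE, adjusted p = 0.411 by edgeR). In that fit 0 members were called with the deleted I-tail, the intact I-tail and on average, against 0.322%, 0.351% and 1.12% of all genes.

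The low members gave wide intervals. CALML5, a calmodulin-like protein of differentiating keratinocytes, had the largest fitted PRL response and the smallest p of the set with the intact I-tail and on average. It had 0.222, 0.229 and 0.828 CPM in deleted PRL, against 0.185, 0.106 and 0.499 in deleted untreated libraries, and 0.173, 0 and 1.32 CPM in intact PRL, against 0.162, 0.0827 and 0.0521 in intact untreated libraries. A single intact PRL library, that of run 3, stood above the others of its group. The averaged log2 fold change was 1.51 ± 0.81 (SE, edgeR adjusted p = 0.98), and 0.31 without that library. With the intact I-tail it was 2.32 ± 1.20 (SE), and -0.09 without it.

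IVL had 0.4, 0.457 and 0.438 CPM in deleted PRL, against 0.115, 0.486 and 0.794 in deleted untreated libraries, and 0.928, 0.926 and 0.536 CPM in intact PRL, against 0.44, 0.165 and 0.92 in intact untreated libraries. PRL and untreated libraries overlapped in both genotypes, and the averaged PRL effect was 0.25 ± 0.47 (SE; 95% interval -0.75 to 1.26). TGM1 gave 0.37 ± 0.61 (-0.94 to 1.67). The kallikreins ranged from -0.09 ± 0.68 for KLK5 to 0.55 ± 0.45 for KLK6, a trypsin-like member of the family. For the averaged PRL effect the 95% interval of 13 of 19 members still held a 2-fold change in some direction, and that of LYPD3, SLPI, SERPINB1, CNFN, CSTA and LY6D did not.

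Removal of the I-tail gave 0 called members in untreated cells, in PRL-treated cells and on average, where 0.00566% of all genes were called in each comparison (edgeR). Again 0 members had an unadjusted p under 0.05 in any of the 3 comparisons, and DESeq2 and limma-voom called 0. Their unadjusted p was under 0.05 for LYPD3 on average in both tools, and for LYPD3 and ALOX12B in PRL-treated cells in limma-voom (adjusted p = 0.268 and 0.258). For the averaged deletion effect 10 members lay above 0 and 9 below, with a median log2 fold change of 0.00, against 0.03 over all tested genes.

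LYPD3 came nearest to the threshold for the averaged deletion effect. Its mean was 195 ± 22 CPM in deleted PRL, against 239 ± 10.8 in intact PRL libraries, and 189 ± 37.9 CPM in deleted untreated, against 216 ± 22.5 in intact untreated libraries (SD, n = 3 each). In PRL-treated cells the deleted libraries had 176 to 219 CPM, against 228 to 250 CPM in the intact ones (edgeR unadjusted p = 0.13). In untreated cells the groups overlapped. How many of all genes separate in this way in PRL-treated cells was not counted. The averaged log2 fold change was -0.24 ± 0.13 (SE, edgeR adjusted p = 0.991). Deleted libraries were below their intact partner of the same run and treatment in 6 of 6 pairs, by -0.51 to -0.0171, a pattern found in one direction or the other in 7.03% of all tested genes. With the runs as a term the effect was -0.25 ± 0.09 (SE, edgeR adjusted p = 0.322). In that fit 0 members were called for the averaged deletion effect, against 0.0622% of all genes.

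CNFN had 15.6, 21.5 and 21.3 CPM in deleted PRL, against 16.5, 25.6 and 21.5 CPM in intact PRL libraries. In untreated cells it had 16.2, 17.6 and 18.6 CPM with the deleted I-tail, against 16, 42.3 and 20.3 CPM with the intact one. The 42.3 CPM of the intact untreated library of run 2 was the highest of all 12. In untreated cells the deletion effect was -0.58 ± 0.31 (SE, edgeR adjusted p = 1), and -0.06 without that library. KLK10, a kallikrein of epithelial cells, had 0, 0.486 and 0.39 CPM in deleted PRL, against 0, 0.0897 and 0.195 CPM in intact PRL libraries, and 0, 0.486 and 0.25 CPM in deleted untreated, against 0, 0 and 0.139 CPM in intact untreated libraries. Its averaged deletion effect was 1.89 ± 1.11 (SE, edgeR adjusted p = 0.991), with 1 library at 0 in each group and a second in intact untreated. It was 3.95 without the intact untreated library of run 3, which leaves that group at 0.

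Whether the PRL response of a member differed between the deleted and the intact I-tail was tested as the interaction. Here 0 of 19 members were called (edgeR), as were 0% of all genes, and 0 had an unadjusted p under 0.05. DESeq2 and limma-voom called 0 as well, with an unadjusted p under 0.05 for ALOX12B in limma-voom (adjusted p = 0.59). FLG, the matrix protein that bundles keratins, had the smallest p. It had 0.267, 0.286 and 0.243 CPM in deleted PRL, against 0.369, 0.824 and 0.431 in deleted untreated libraries, and 0.453, 0.239 and 1.12 CPM in intact PRL, against 0.0464, 0.0276 and 0.833 in intact untreated libraries. The interaction was -1.96 ± 1.31 (SE, edgeR adjusted p = 1). It was -4.91 without the intact untreated library of run 3 and -1.20 without the intact PRL library of run 3. An antisense gene, FLG-AS1 (0.2197 CPM), overlaps FLG on the other strand. No source used here says whether counting used strand, so the reads of the pair cannot be told apart.

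**Figure D2:**
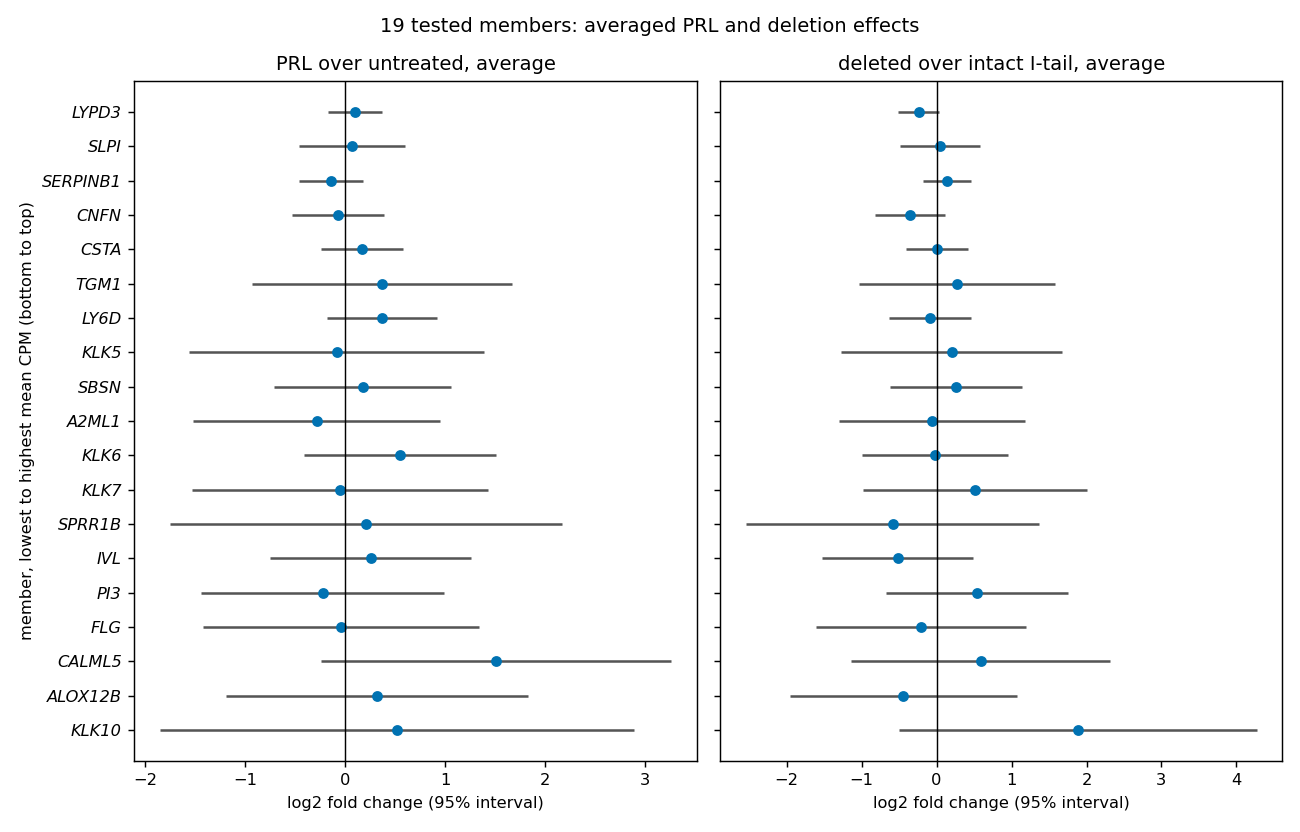
Averaged log2 fold change (horizontal axis, points) with its 95% interval (bars) for the 19 tested genes, PRL over untreated on the left and deleted over intact I-tail on the right; genes run from the highest mean CPM at the top to the lowest at the bottom. Every interval includes 0, and intervals widen toward the genes with few counts.

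A wider list of 98 other epidermal genes (keratins, further envelope and junction genes, barrier enzymes and their transcription factors) was examined beside the set. Of these 48 were tested, and 0 were called in any of the 7 comparisons by edgeR with 1 mean per group, with 0 to 5 at an unadjusted p under 0.05 per comparison. Over all 17677 genes, 0 to 21 were called per comparison, and 127 to 673 had an unadjusted p under 0.05. The smallest p for the averaged PRL effect belonged to PRDM1, a transcriptional repressor. It averaged 8.33 ± 1.21 CPM in deleted PRL, against 4.29 ± 0.298 in deleted untreated libraries, and 5.49 ± 2.56 CPM in intact PRL, against 3.74 ± 1.21 in intact untreated libraries (SD, n = 3 each). Its averaged log2 fold change was 0.76 ± 0.23 (SE, edgeR adjusted p = 0.672), and 0.73 ± 0.17 with an adjusted p of 0.0444 once the runs were a term of the fit. In that fit 1 of the 48 genes, PRDM1, was called for the averaged PRL effect, against 1.12% of all genes.

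The keratin KRT80 gave 0.88 ± 0.29 for the averaged PRL effect (SE, edgeR adjusted p = 0.882), with 141 ± 40.2 CPM in deleted PRL, against 93.8 ± 18 in deleted untreated libraries, and 250 ± 187 CPM in intact PRL, against 112 ± 30.7 in intact untreated libraries (SD, n = 3 each). EMP1, an epithelial membrane protein, gave 0.40 ± 0.14 (here and below ± is the SE), and UGCG, the glucosylceramide synthase of barrier lipids, -0.49 ± 0.20. With the deleted I-tail alone, the smallest p values after PRDM1 (0.96 ± 0.33) were those of UGCG (-0.62 ± 0.28), SERPINB8 (0.47 ± 0.22) and the barrier transcription factor GRHL3 (0.88 ± 0.43). With the intact I-tail they were those of KRT80 (1.16 ± 0.42), EMP1 (0.47 ± 0.20), PRDM1 (0.56 ± 0.33) and the late envelope gene LCE1C (2.51 ± 1.53).

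For the averaged deletion effect the smallest p values of this list belonged to the tight junction gene CLDN4 (-0.40 ± 0.15), the grainyhead factor GRHL2 (1.16 ± 0.44), KRT80 (-0.54 ± 0.29) and LCE1B (-0.99 ± 0.55; edgeR adjusted p = 0.991 for each). CLDN4 averaged 29.7 ± 1.95 CPM in deleted PRL, against 40.7 ± 13.4 in intact PRL libraries, and 33.5 ± 2.24 CPM in deleted untreated, against 42.5 ± 4.89 in intact untreated libraries (SD, n = 3 each). In untreated cells the nearest were LCE1C (2.83 ± 1.51), GRHL2 (1.10 ± 0.62), GRHL3 (-0.73 ± 0.43) and CLDN4 (-0.35 ± 0.21). In PRL-treated cells they were CLDN4 (-0.46 ± 0.21), the serine protease PRSS27 (-0.50 ± 0.25), KRT80 (-0.83 ± 0.41) and GRHL2 (1.21 ± 0.63). For the interaction they were POU2F3 (-2.65 ± 1.43), PRSS27 (-0.53 ± 0.35), GRHL3 (0.82 ± 0.61) and LCE1C (-2.55 ± 1.97).

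The members varied along another division of the libraries, as did many of all tested genes. The sample titles number the libraries 1 to 12 in 3 runs of 4, and each run holds 1 library of each group. The labels do not say what a run is. In a fit with groups and runs, examined after the data had been seen, 10 of 19 members (52.6%) differed between runs at an adjusted p under 0.05 (edgeR), against 42.1% of all tested genes. Of the 19, 9 were called and higher in both run 2 and run 3 than in run 1, against 19.2% of all tested genes. Only 1 of the 19 was called and lower in both, against 20.9% of all tested genes. Direction here and below is the sign of both fitted differences from run 1, while the call is 1 joint test of the runs. The division cut through the roles: 3 of 6 tested envelope genes, 3 of 4 kallikreins, 4 of 5 protease inhibitors, 0 of 3 surface and secreted proteins and 0 of 1 lipid genes were called.

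TGM1 had the smallest p. In deleted PRL, deleted untreated, intact PRL and intact untreated libraries it had 6.49, 3.95, 4.72 and 3.34 CPM in run 2 and 3.41, 3.09, 2.75 and 2.57 CPM in run 3, against 0.689, 0.462, 0.583 and 0.858 CPM in run 1. Every library of runs 2 and 3 lay above every library of run 1, whatever the genotype or treatment. The log2 difference was 2.81 ± 0.24 for run 2 and 2.18 ± 0.24 for run 3 over run 1 (SE, edgeR adjusted p = 9.18e-06).

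KLK5 followed the same division with a different order. It had 1.37, 1.2, 1.4 and 2.95 CPM in run 2 and 4.7, 4.86, 3.73 and 2.43 CPM in run 3, against 0.467, 0.531, 0.259 and 0.649 CPM in run 1, for the groups in the order just given. The differences from run 1 were 1.85 ± 0.36 for run 2 and 3.09 ± 0.36 for run 3 (SE, edgeR adjusted p = 0.000103). KLK7, the chymotrypsin-like kallikrein of skin shedding, averaged 0.577 ± 0.293 CPM in run 2 and 0.939 ± 0.0712 in run 3, against 0.194 ± 0.171 in run 1 (SD, n = 4 each, edgeR adjusted p = 0.014). KLK10 had no count in the 4 run 1 libraries and 43 counts in each of runs 2 and 3 (edgeR adjusted p = 0.0117). Taken against 3 counts over the run 1 libraries (0.0169 CPM), its pooled level was 16.8-fold higher in run 2 and 13.9-fold in run 3. These ratios allow for counting error in run 1 alone and are no lower bounds. Its libraries ranged from 0 to 0.486 CPM in run 2 and from 0.139 to 0.39 CPM in run 3. KLK6, which lies between KLK5 and KLK7, did not pass. It averaged 0.656 ± 0.554 CPM in run 2 and 0.523 ± 0.203 in run 3, against 0.72 ± 0.299 in run 1 (SD, n = 4 each, edgeR adjusted p = 0.793).

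SLPI had 95, 88.4, 94.2 and 82.9 CPM in run 2 and 79.1, 62.6, 58.8 and 75.1 CPM in run 3, against 44.9, 44.2, 45.3 and 44.2 CPM in run 1, in the same order of groups. The 4 groups spanned 82.9 to 95 CPM in run 2 and 58.8 to 79.1 CPM in run 3, against 44.2 to 45.3 CPM in run 1. The differences were 1.01 ± 0.10 for run 2 and 0.62 ± 0.10 for run 3 (SE, edgeR adjusted p = 4.41e-05). SERPINB1 went the other way, with 33.6, 33.8, 26.3 and 30.4 CPM in run 2 and 23.6, 29.8, 24.6 and 28.6 CPM in run 3, against 38.3, 39.8, 34.3 and 37 CPM in run 1. Its differences were -0.27 ± 0.10 and -0.49 ± 0.10 for runs 2 and 3 (SE, edgeR adjusted p = 0.00369). For 6 of 19 members (TGM1, CNFN, KLK5, SERPINB1, CSTA, SLPI) no library of runs 2 and 3 overlapped run 1, and the same was true of 26.4% of all tested genes.

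Among the remaining called members, A2ML1, a broad protease inhibitor of the granular layer, averaged 0.605 ± 0.323 CPM in run 2 and 1.13 ± 0.427 in run 3, against 0.26 ± 0.0454 in run 1 (SD, n = 4 each, edgeR adjusted p = 0.00753). CNFN averaged 26.7 ± 10.9 and 20.4 ± 1.36 CPM in runs 2 and 3, against 16.1 ± 0.378 in run 1 (adjusted p = 0.0148 by edgeR). CSTA had 8.56 ± 1.09 and 9.57 ± 2.04 CPM in runs 2 and 3, against 6.4 ± 0.773 in run 1 (adjusted p = 0.0175 by edgeR). SPRR1B, a small proline-rich envelope protein, had 0.657, 0.845, 0 and 0.496 CPM in run 2 and 0.438, 0.522, 2.54 and 0.868 CPM in run 3, against 0.0889, 0.115, 0.0432 and 0.139 CPM in run 1 (edgeR adjusted p = 0.0214). The 0 and the 2.54 CPM, its lowest and highest values, both belong to intact PRL libraries. SPRR1A, whose longest reading frame is 96.3% identical to that of SPRR1B over 270 bases (GENCODE 29 transcripts), had 42 counts in all, none of them in run 1. Reads of the pair may be assigned to either gene or dropped.

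Some of these calls depended on single libraries or on the scaling. The SPRR1B call was lost without any one of 4 libraries (adjusted p up to 0.0995 by edgeR), that of CSTA in 5 of 18 alternative fits (up to 0.187), that of CNFN in 2 of 18 (up to 0.178, when only library size was scaled), and that of KLK10 without the deleted PRL library of run 1 (0.0516). TGM1, KLK5, SLPI, SERPINB1 and A2ML1 were called in 18 of 18, and KLK7 in 17 of 17.

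LYPD3 averaged 206 ± 36.6 CPM in run 2 and 195 ± 32.6 in run 3, against 229 ± 6.78 in run 1 (SD, n = 4 each, edgeR adjusted p = 0.184). LY6D had 2.32 ± 0.71 and 2.31 ± 0.981 CPM in runs 2 and 3, against 1.79 ± 0.231 in run 1 (edgeR adjusted p = 0.498). IVL and FLG gave adjusted p values of 0.531 and 0.229. The other members that did not pass were CALML5 (adjusted p = 0.0693), PI3, the elastase inhibitor elafin (0.08), SBSN, the suprabasal protein suprabasin (0.198), and ALOX12B, the lipoxygenase that oxidises barrier ceramides (0.705).

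**Figure D3:**
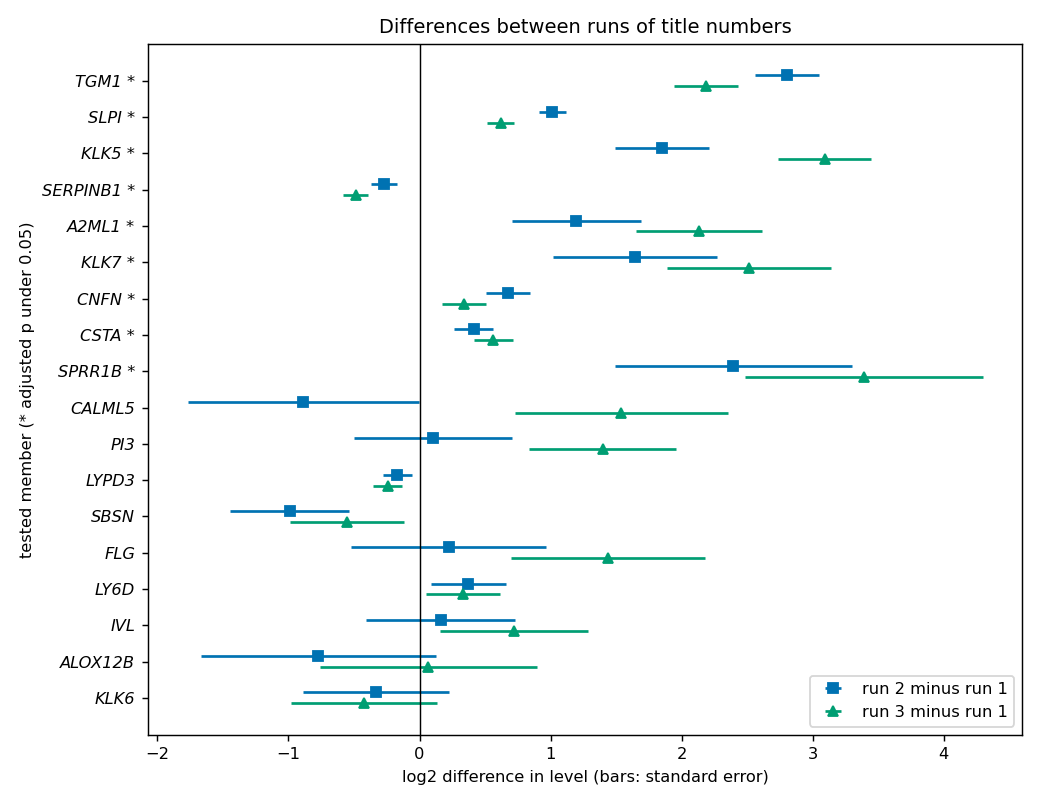
Log2 difference in level between runs of title numbers (horizontal axis, points; bars are standard errors) for 18 tested genes, with run 2 minus run 1 in blue squares and run 3 minus run 1 in green triangles; asterisks mark an adjusted p under 0.05, and KLK10, at 0 in run 1, is left out. TGM1 and KLK5 lie far above 0 in both runs and SERPINB1 below it.

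Genes of other lists also differed between runs, at shares to be read against the 42.1% of all genes. Of the other epidermal list 24 of 48 tested genes (50%) did so, with KRT6A, EPPK1, PRSS8 and KRT16 giving the smallest p. By sign, 18 of the 24 were higher in runs 2 and 3, 4 were lower and 2 were mixed. One of the 4, ANXA1, had a log2 difference of only -0.05 ± 0.11 (SE) for run 3 over run 1. KRT6A, a keratin of stressed and hyperproliferative epidermis, averaged 158 ± 39.3 CPM in run 2 and 318 ± 121 in run 3, against 53.2 ± 11.4 in run 1 (SD, n = 4 each). Among 10 basal epithelial markers 9 were called and higher in runs 2 and 3. The summed level of the 10 was 9330 to 16200 CPM there, against 3530 to 4330 CPM in run 1. KRT5 alone averaged 1690 ± 556 CPM in run 2 and 2680 ± 508 in run 3, against 363 ± 47.4 in run 1 (SD, n = 4 each). Of 8 simple epithelial markers 5 were called and higher. The 8 had a summed level of 3240 to 8430 CPM in runs 2 and 3, against 2160 to 2590 CPM in run 1. The suprabasal markers, which include KRT1, KRT2, DSG1 and DSC1, summed to 23.9 to 31.4 CPM in runs 2 and 3, against 24.8 to 28.7 CPM in run 1, nearly all of it KRT10. Neither of the 2 tested ones, KRT10 and FLG, differed, and FLG is itself one of the members. The lists also share genes: KRT10, TP63 and CLDN4 are in a marker list and in the other epidermal list.

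Technical measures moved with the runs too. Libraries of runs 2 and 3 had a count in 19073 to 23895 genes and TMM factors of 0.79 to 1.05, against 24477 to 25200 genes and factors of 1.1 to 1.16 in run 1. In bulk RNA, fewer cells of a type and less RNA per cell cannot be told apart. Of 8 leukocyte markers 3 were tested and 2 differed between runs in mixed directions (CSF1R, CD14), and the list summed to 39 to 66 CPM in runs 2 and 3, against 45.6 to 58.3 CPM in run 1, most of it CSF1R, while PTPRC and CD3E were at or near 0. Of 6 fibroblast markers 4 were tested and 2 differed (COL1A1, DCN), with a sum of 402 to 606 CPM in runs 2 and 3, against 404 to 500 CPM in run 1. Of 6 endothelial markers 2 were tested and 1 was lower, with a sum of 1.16 to 2 CPM in runs 2 and 3, against 2.03 to 3.2 CPM in run 1, and of 4 tested melanocyte markers 0 differed. What part these markers, the number of genes with a count or the scaling had in the member differences was not tested.

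**Figure D4:**
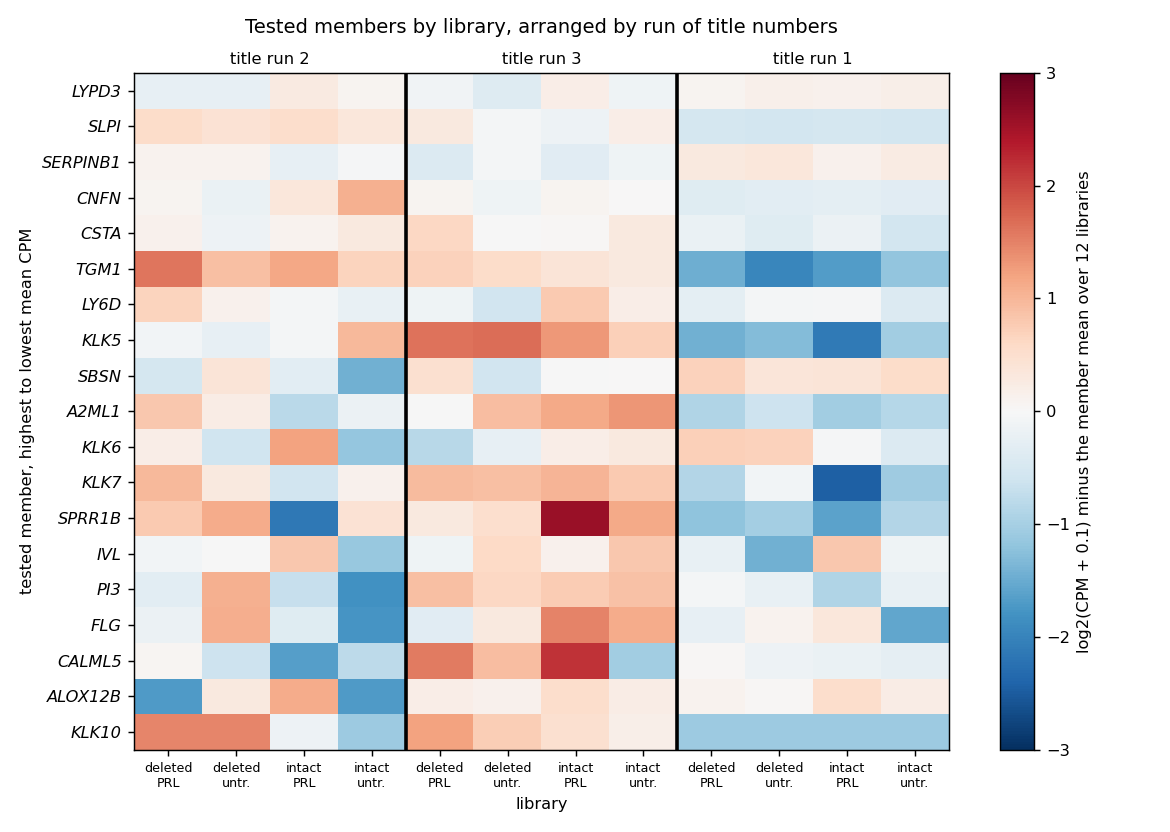
Log2(CPM + 0.1) of the 19 tested genes minus each gene's mean over 12 libraries (colour; red higher, blue lower), with libraries on the horizontal axis grouped by run of title numbers and, within a run, by group. The run 1 block is mostly blue for TGM1, SLPI, KLK5, A2ML1, KLK7 and KLK10, in all 4 groups.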

How the data were processed

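RNA of 12 MCF10AT libraries was polyA-selected and sequenced, per the labels' protocols. The authors deposited raw counts for each gene and library, made with STAR 2.7.9a and featureCounts of Subread on GRCh38, per the submitters' processing notes. No source used here gives the annotation release, strand setting or filters. The table held 62703 entries, of which 1 without values was left out. A gene symbol was found for 62624 of 62702 entries.

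The filter filterByExpr of edgeR 4.0.16 (R 4.3.3) left 17677 genes. Their TMM-scaled counts were fitted with a mean for each of the 4 groups, with robust estimates of the quasi-likelihood dispersion. The fit had 8 residual degrees of freedom and a biological coefficient of variation of 0.303. The quasi-likelihood F test was run on 7 contrasts, adjusted by Benjamini-Hochberg over all tested genes and called at 0.05. DESeq2 1.42.0, limma 3.58.1 (voom with quality weights), other scalings and filters, a term for the runs of title numbers, and leaving out each library were alternatives. Differences between runs were tested with 2 coefficients in the fit with groups and runs (6 residual degrees of freedom).

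The labels number no replicates, so libraries were numbered by title order inside each group. Deviations from the group means were correlated across 12950 genes between libraries of the same run (0.241 to 0.836 over 18 pairs). Pairs of different run and different group had -0.693 to 0.536 (36 pairs). Only run 1 (0.671 to 0.836) lay wholly above that range, and run 2 (0.241 to 0.631) and run 3 (0.262 to 0.633) overlapped it. The fit with runs is given where it matters. Replicate libraries differed by more than sampling noise (chi-square per degree of freedom 51.2 to 212). The members and gene lists were chosen with earlier results of these data known. Members nearest to a threshold are named with their values in every library or their group means, and of the wider list the 4 with the smallest p per comparison.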

Additional observations from a re-analysis of the deposited data

How the results depend on the processing

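No member was called in any of the 7 comparisons under the alternatives that gave it an adjusted p. These covered all 133 member results except that the filter of 1 CPM and 10 counts in 3 libraries kept 10 of the 19 members and DESeq2 gave no adjusted p for 13 of 133. With the runs of title numbers as a term, members called stayed at 0. Unadjusted p values under 0.05 (edgeR) then appeared for CSTA (PRL, deleted I-tail, 0.38 ± 0.17, SE) and CNFN (deletion, untreated, -0.48 ± 0.20, and average, -0.30 ± 0.14). They also appeared for LYPD3 (deletion, PRL-treated, -0.30 ± 0.13, and average, -0.25 ± 0.09) and KLK10 (deletion, average, 1.96 ± 0.90). With no count filter they appeared for CALML5 (PRL, intact and average), CNFN (deletion, untreated and average) and KLK10 (deletion, average). Counts over all genes moved far more: for the averaged PRL effect 21 genes were called, against 198 with the runs, 124 with no count filter, 86 by DESeq2, 118 by limma-voom and 11 to 27 without 1 library. For PRL with the deleted I-tail these counts were 3, against 57, 33, 21 and 21, and with the intact I-tail 3, against 62, 46, 21 and 27 (1 in each under library size alone). For the averaged deletion effect 1 gene was called, against 11, 33, 10 and 9. In untreated cells the count was 1, against 6, 4 and 6 with no filter, DESeq2 and limma-voom, and in PRL-treated cells 1, against 4, 2 and 2. The interaction had 0 in every fit. Between runs, 7 to 12 members were called over the alternatives, against 10, and 4941 to 9338 genes, against 7444. The members fitted differed between these settings. The filter of 1 CPM and 10 counts in 3 libraries kept 10 of the 19 members and called 7, with 7626 genes called. Without a count filter, the 14 members with low counts were fitted too, and 12 members were called, with 7761 genes. Leaving out the intact untreated library of run 1 also gave 7 members, with 4941 genes. Scaling by library size alone moved the median of all genes for runs 2 and 3 over run 1 to -0.40 and -0.31, against -0.10 and -0.09, and left 9 members called. The median log2 PRL effect of the members was 0.02 to 0.28 on average over the libraries left out. With the deleted I-tail it was -0.08 to 0.14, lowest without the deleted PRL library of run 3, and with the intact one -0.0041 to 0.499, lowest without the intact PRL library of run 3. Levels under 1 CPM, those of 11 of the 19 tested members, rest on 86 to 355 counts over all 12 libraries, which limits what they can show.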
